A study of Rattus norvegicus with 30 samples.

Results

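The aryl hydrocarbon receptor (AhR) pathway was described through 6 genes: the cytochrome P450 genes Cyp1a1, Cyp1a2 and Cyp1b1, the AhR target Tiparp, the receptor Ahr and its partner Arnt. They are 6 of 14217 rat genes with a probe set of their own, and 8 of 31099 probe sets belong to them alone. Per gene the probe set with the highest mean signal over all 30 arrays was used, and the others served as a check. The probe sets were thus selected on mean signal, and the genes were chosen by signals of these same arrays seen earlier, so their levels are a description and the p-values below are no independent support. Cultured male Sprague Dawley rat hepatocytes, bought frozen and overlaid with Matrigel, were exposed on day 3 of culture to methapyrilene, an antihistamine that causes liver tumours in rats. The 6 groups were 100 uM methapyrilene HCl, 3 uM methapyrilene HCl and the vehicle DMSO, each at 24 h and at 48 h. Every group had 5 wells with 1 array each. Vehicle is labelled as 1% DMSO, while the dosing stocks are also described as made up in 1% DMSO, so its final share is unclear. No animals are named for the wells, so every p-value measures the spread between wells of 1 purchased kind of cell. The doses were compared with the same DMSO wells, so both comparisons at a time share their controls.

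AhR is a ligand-activated transcription factor that rests in the cytosol with a chaperone complex built on HSP90. Bound by a ligand it moves to the nucleus, pairs with ARNT and binds xenobiotic response elements, whose core reads GCGTG, near its target genes. In liver its best known targets are Cyp1a1 and Cyp1a2, and it also induces its own antagonists, among them Tiparp.

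Promoters show how often this core occurs close to the start sites of the genes. A RefSeq promoter of 300 bases on GRCr8 was found for 5 of the 6 genes, and Cyp1a1 is named only. The 3 AhR target genes with a promoter are printed 5′ to 3′ on the gene's strand, from 250 bases before to 50 bases after the start site, with GCGTG or its reverse complement CACGC in capitals. Cyp1a2 lies at chr8:66978100-66978399 on the minus strand, Cyp1b1 at chr6:21094315-21094614 on the plus strand and Tiparp at chr2:152063519-152063818 on the plus strand.
Cyp1a2: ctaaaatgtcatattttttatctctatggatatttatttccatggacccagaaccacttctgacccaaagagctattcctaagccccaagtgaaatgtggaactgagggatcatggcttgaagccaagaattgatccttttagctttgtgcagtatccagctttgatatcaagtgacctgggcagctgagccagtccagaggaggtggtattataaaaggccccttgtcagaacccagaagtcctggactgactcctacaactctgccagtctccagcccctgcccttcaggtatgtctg
Cyp1b1: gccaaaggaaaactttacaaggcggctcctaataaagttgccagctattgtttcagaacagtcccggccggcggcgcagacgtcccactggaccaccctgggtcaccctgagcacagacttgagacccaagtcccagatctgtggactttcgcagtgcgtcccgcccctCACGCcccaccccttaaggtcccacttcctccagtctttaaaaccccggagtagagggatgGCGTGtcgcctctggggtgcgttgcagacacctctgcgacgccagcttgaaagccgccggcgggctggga
Tiparp: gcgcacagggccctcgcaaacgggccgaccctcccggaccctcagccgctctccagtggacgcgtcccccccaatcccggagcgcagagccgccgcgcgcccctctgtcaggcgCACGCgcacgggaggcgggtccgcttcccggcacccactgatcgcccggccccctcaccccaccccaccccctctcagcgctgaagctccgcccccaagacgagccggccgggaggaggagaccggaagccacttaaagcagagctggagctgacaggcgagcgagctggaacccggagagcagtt
The Cyp1b1 window held 2 matches, beginning at -81 on the opposite strand and -20 on the gene's own strand, where -1 is the base before the start site. The Tiparp window held 1 match, beginning at -136 on the opposite strand. These letters do not occur in the Cyp1a2 window, and bases outside the 300 of a window were not searched. The Arnt window, not printed, held a match beginning at -42 on the gene's own strand, and the Ahr window held none. Of all 33469 rat promoters of this length 29.7% held at least 1 match, and 10.2% held at least 2. No matches overlapped, and a match is a description of letters, not of a bound site.

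Signals are MAS5 intensities on a linear scale, and tests were made on log2 signal, where a log2 fold change of -1 is a halving. A probe set was tested if at least 5 arrays exceeded their own median, and a difference was called at an adjusted p under 0.05 over 10222 genes (limma, Benjamini-Hochberg). Cyp1a1, Cyp1a2, Cyp1b1 and Tiparp passed, each above the array median on 30 of 30 arrays. Ahr was above it on 2 of 30 arrays and Arnt on 0 of 30, so both were left out of the fit. Array medians lay between 362 and 471. Replicates 1, 2 and 3 of 3 uM at 24 h stood apart: their 3′ beta-actin control signal was 3.93 to 5.30 times the 5′ signal, against 2.34 to 3.43 times in the other 27 arrays. Results of 3 uM at 24 h are given with these 3 arrays and, for the genes described and the calls in the gene lists, also with replicates 4 and 5 alone. Of 8 hepatocyte markers 7 were on the array, all above its median on every array, while the endothelial markers Pecam1 and Vwf, the stellate cell marker Lrat and the leukocyte marker Ptprc were above it on none. Markers of these and other cell types that were above it on all 30 arrays were Acta2, Col3a1, Lyz2, Cd68, Aif1, Kdr and Epcam. No 2 arrays held identical values.

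Cyp1a1, which encodes the P450 that oxidises polycyclic aromatic hydrocarbons, was lower in methapyrilene wells at both doses and both times. At 24 h the signals in the 5 wells with 100 uM were 7745, 8353, 8024, 8205 and 9147, against 31866, 30914, 28009, 27579 and 32243 in the DMSO wells. The groups did not overlap, and the mean at 100 uM was 27.5% of the DMSO mean. The log2 fold change was -1.86 ± 0.080 (SE, n = 5 each, limma adjusted p = 2.51e-18). At 48 h the wells with 100 uM read 12668, 14486, 12204, 14286 and 12752, against 30920, 31278, 31343, 29929 and 35272 in the DMSO wells. Again every treated well lay below every DMSO well, at 41.8% of the mean, with a log2 fold change of -1.26 ± 0.080 (limma adjusted p = 1.96e-14). In such bulk samples fewer cells of a type and less RNA per cell cannot be told apart.

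The lower dose gave a smaller difference in Cyp1a1. At 24 h the wells with 3 uM read 17498, 16900, 16719, 21176 and 25200, all below the lowest DMSO well at 27579. The mean was 64.7% of the DMSO mean, and the log2 fold change was -0.64 ± 0.080 (limma adjusted p = 3.27e-05). The first 3 of those wells are the arrays with the high beta-actin ratio, and they held the 3 lowest values. With replicates 4 and 5 alone the log2 fold change was -0.38 (limma adjusted p = 0.0578), and the call was lost. With the beta-actin ratio as a covariate it was -0.50 (limma adjusted p = 0.0346). Fitted on these 2 groups alone it was not called (adjusted p = 0.217), and the part of RNA quality in the result was not tested. At 48 h the wells with 3 uM read 22534, 23777, 23611, 24351 and 24546, below all DMSO wells and at 74.9% of their mean. The log2 fold change was -0.42 ± 0.080 (limma adjusted p = 0.0309). That call was lost when any of 9 of the 10 wells was left out (each but replicate 4 of DMSO), with an adjusted p of up to 0.195.

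**Figure D1:**
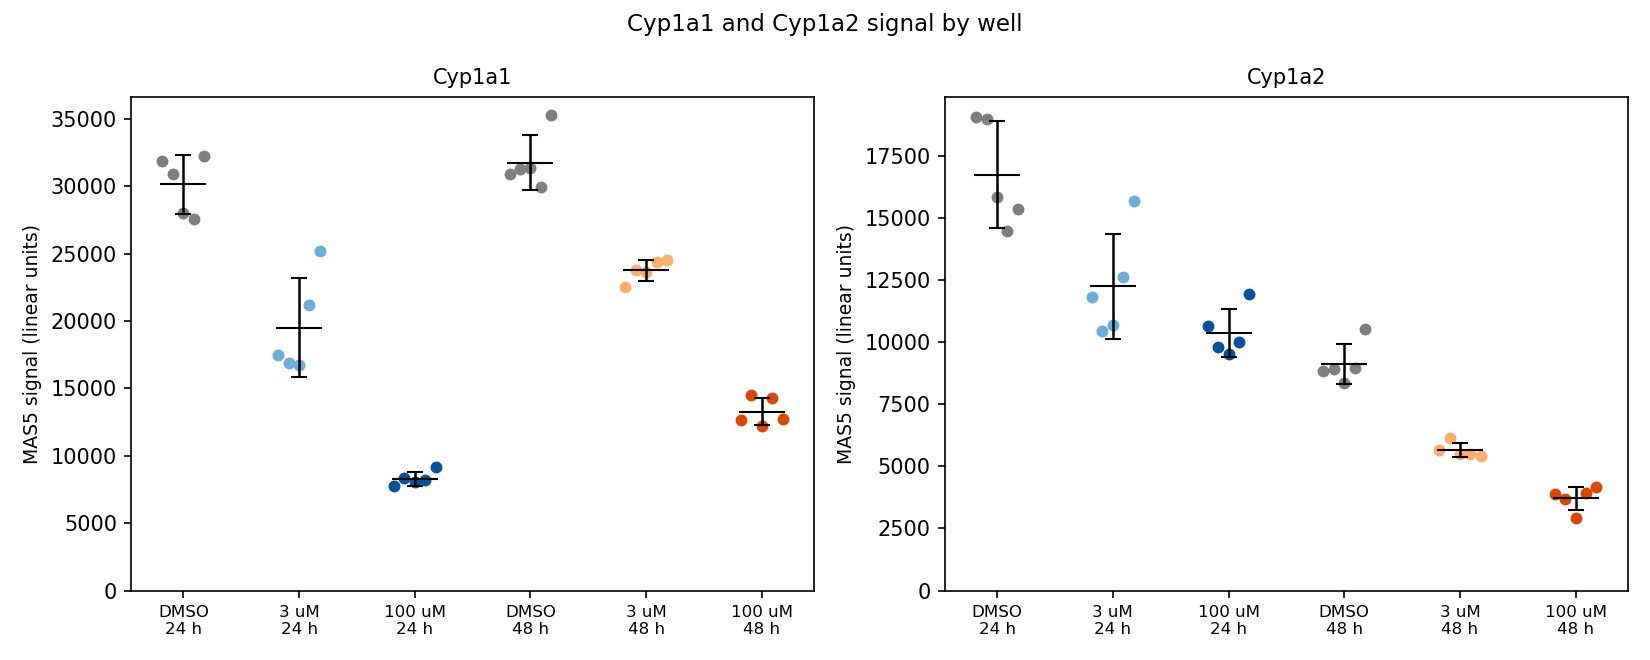
MAS5 signal (linear units, axis from 0) of Cyp1a1 and Cyp1a2 in each well by dose and time; points are wells, bars the mean and SD of 5 wells. Cyp1a1 at 100 uM read 7745 to 9147 at 24 h and, at the later time, 12204 to 14486, below all wells of 3 uM and DMSO at the same time.

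Doses differed from each other as well. Cyp1a1 had a log2 difference between 100 uM and 3 uM of -1.22 at 24 h (limma adjusted p = 8.26e-14) and -0.84 at 48 h (adjusted p = 3.84e-10), with no overlap at either time. In DMSO wells the 48 h and 24 h levels were within the spread between wells (log2 difference 0.08, 95% interval -0.09 to 0.24, limma adjusted p = 0.731). Ordered by mean, the 6 groups ran from 100 uM at 24 h (8295) through 100 uM at 48 h (13279), 3 uM at 24 h (19499), 3 uM at 48 h (23764) and DMSO at 24 h (30122) to DMSO at 48 h (31748). Neighbours overlapped only between the 3 uM groups and between the DMSO groups.

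Cyp1a2, a liver P450 that metabolises aromatic amines and caffeine and lies beside Cyp1a1 on rat chromosome 8, was also lower at both doses and both times. At 24 h the wells with 100 uM read 10639, 9783, 9502, 9992 and 11940, against 19077, 18968, 15830, 14466 and 15353 in the DMSO wells. The groups did not overlap, and the log2 fold change was -0.69 ± 0.096 (SE, n = 5 each, limma adjusted p = 6.77e-07), with the mean at 62.0% of DMSO. At 48 h the wells with 100 uM read 3877, 3700, 2929, 3915 and 4148, against 8837, 8907, 8361, 8965 and 10527 in the DMSO wells. All treated wells lay below all DMSO wells, at 40.7% of the mean and with a log2 fold change of -1.30 ± 0.096 (limma adjusted p = 7.21e-13).

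With 3 uM for 24 h Cyp1a2 read 11799, 10448, 10700, 12608 and 15692. Replicate 5 lay within the DMSO range, so these groups overlapped. The log2 fold change was -0.46 ± 0.096 (limma adjusted p = 0.00829), with the mean at 73.2% of DMSO. With replicates 4 and 5 alone it was -0.24 (limma adjusted p = 0.521) and with the beta-actin covariate -0.33 (adjusted p = 0.547), so the call was lost in both, as it was with the 2 groups alone (adjusted p = 0.233). Leaving out replicate 3 of 3 uM at 24 h also ended it (adjusted p = 0.0517). At 48 h the wells with 3 uM read 5659, 6120, 5509, 5499 and 5417, without overlap with the DMSO wells. The log2 fold change there was -0.69 ± 0.096 (limma adjusted p = 0.000362), at 61.9% of the mean, and the call held with each of the 10 wells left out in turn.

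At 48 h Cyp1a2 also separated the doses, with a log2 difference of -0.61 between 100 uM and 3 uM (limma adjusted p = 6.66e-06) and no overlap. At 24 h the difference between 100 uM and 3 uM was -0.23 (95% interval -0.43 to -0.03, limma adjusted p = 0.0585) and was not called. It was called with replicates 4 and 5 of 3 uM alone (-0.44, limma adjusted p = 0.00421), and without 3 uM replicate 2 or 3 or 100 uM replicate 5, or, at 48 h, 100 uM replicate 3 (adjusted p = 0.0262 to 0.0392). Unlike Cyp1a1, Cyp1a2 fell with time in the vehicle, by 0.87 on the log2 scale in DMSO wells at 48 h relative to DMSO wells at 24 h (limma adjusted p = 9.64e-08). The group means ran from 100 uM at 48 h (3714) through 3 uM at 48 h (5641), DMSO at 48 h (9119), 100 uM at 24 h (10371) and 3 uM at 24 h (12249) to DMSO at 24 h (16739). From DMSO at 48 h upwards, each group overlapped its neighbour.

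The effect of 100 uM changed with time in opposite directions for these genes. For Cyp1a1 the log2 fold change against DMSO moved by 0.60 ± 0.11 towards 0 between 24 h and 48 h (limma interaction, adjusted p = 0.00224). For Cyp1a2 it moved by -0.62 ± 0.14, away from 0 (limma interaction, adjusted p = 0.0111). For 3 uM the change was 0.23 for Cyp1a1 (95% interval -0.00 to 0.46, adjusted p = 0.411) and -0.23 for Cyp1a2 (-0.51 to 0.04, adjusted p = 0.488), and neither was called. Without the 3 arrays of 3 uM at 24 h with the high beta-actin ratio, it was -0.04 for Cyp1a1 and -0.45 for Cyp1a2. Neither was called there, and the opposite signs seen with all arrays were not kept. Within an array, the log2 signal of Cyp1a1 minus that of Cyp1a2 was between -0.46 and -0.23 in the wells with 100 uM at 24 h, against 0.70 to 1.07 in the DMSO wells. At 48 h it was 1.62 to 2.06 with 100 uM and 1.74 to 1.91 with DMSO. The groups were apart at 24 h and overlapped at 48 h. This difference compares how the signals of 2 probe sets moved, not their amounts, and it was not tested.

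**Figure D2:**
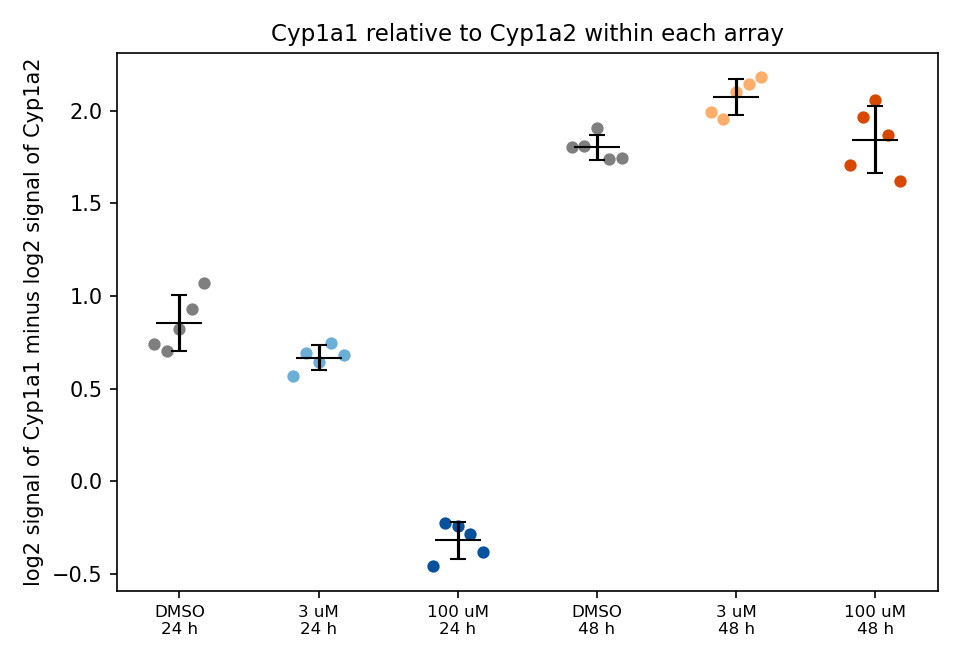
Log2 signal of Cyp1a1 minus log2 signal of Cyp1a2 in each of the 30 arrays by dose and time, with the mean and SD of 5 wells. The wells with 100 uM at 24 h, between -0.46 and -0.23, lie below all others, and the 48 h groups lie above all 24 h groups.

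Read against all genes, these calls stand beside very different backgrounds. At 100 uM and 24 h 2 of the 4 tested genes fell and 0 rose, where 35.7% of all genes were called (15.8% lower and 19.9% higher). After 48 h of 100 uM 2 fell and 1 rose, with 33.4% of all genes called (14.5% lower and 18.9% higher). Genes with all 100 uM wells below all DMSO wells made up 11.9% at 24 h and 12.1% at 48 h, and Cyp1a1 and Cyp1a2 were among them at both times.

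The background at 3 uM was far lower. After 24 h 2 of 4 fell where 4.22% of genes were called (1.22% lower and 2.99% higher), and Cyp1a1 alone of the 4 lay below DMSO without overlap, as did 0.704% of all genes. That background rests on single arrays: 431 genes were called with all arrays and 4 with replicates 4 and 5 alone. Leaving out 1 array of 3 uM at 24 h gave 76, 65 and 42 genes without replicates 1, 2 and 3, and 1449 and 1650 without replicates 4 and 5. Leaving out DMSO replicates 1, 2 and 5 of that time gave 264, 126 and 240. After 48 h only 4 genes of 10222 were called, 0.0391%, with 0.0196% lower and 0.0196% higher, and Cyp1a2 and Cyp1a1 were the 2 that were lower. The others, Rrp9 (0.82) and Ift52 (0.49), were higher and are named after their values were seen. The count fell to 2 without any 1 array of 3 uM at 48 h and without DMSO replicate 2, 3 or 5 of that time. Groups did not overlap, with 3 uM lower, in 0.763% of all genes.

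Between 100 uM and 3 uM, 1 of 4 was called at 24 h (38.9% of all genes, 19.1% lower and 19.8% higher) and 2 of 4 at 48 h (28.8%, 12.6% lower and 16.2% higher), and all of these were lower. Without overlap and lower were 11% of all genes at 24 h and 10.2% at 48 h. Over time in DMSO wells 1 of 4 was called, where 4.48% of genes were (1.92% lower and 2.56% higher, 3.07% lower without overlap). For the change of the 100 uM effect 2 of 4 were called against 1.66% of genes (1.05% lower and 0.616% higher). The change of the 3 uM effect was called for 0 of 4, with 0 at an unadjusted p under 0.05 and 0 of all genes called. Without replicate 4 or 5 of 3 uM at 24 h it was called for 35 and 153 genes, with none of the 4 among them. The share of higher genes among calls moved with the scaling: with arrays centred on their median it was 47.5% against 55.6% as deposited for 100 uM at 24 h, 44.7% against 56.6% for 100 uM at 48 h, 90.7% against 71.0% for 3 uM at 24 h, and 34.5% against 50.9% for 100 uM against 3 uM at 24 h.

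Cell type markers were counted at 100 uM beside the shares of 15.8% lower and 19.9% higher at 24 h and 14.5% lower and 18.9% higher at 48 h over all genes. Of 7 hepatocyte markers 3 fell at 24 h and 2 at 48 h. Of 6 Kupffer cell and leukocyte markers 1 rose and 1 fell at each time. Of 5 stellate cell and fibroblast markers 1 rose at 48 h. Of 2 cholangiocyte markers 1 rose at 24 h and both fell at 48 h. The hepatocyte markers' summed signal was 390148 to 491199 with 100 uM at 24 h against 423771 to 532815 with DMSO, and 367318 to 416017 with 100 uM at 48 h against 414503 to 490533 with DMSO. The part of these markers in the lower Cyp1a1 and Cyp1a2 signals was not tested.

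**Figure D3:**
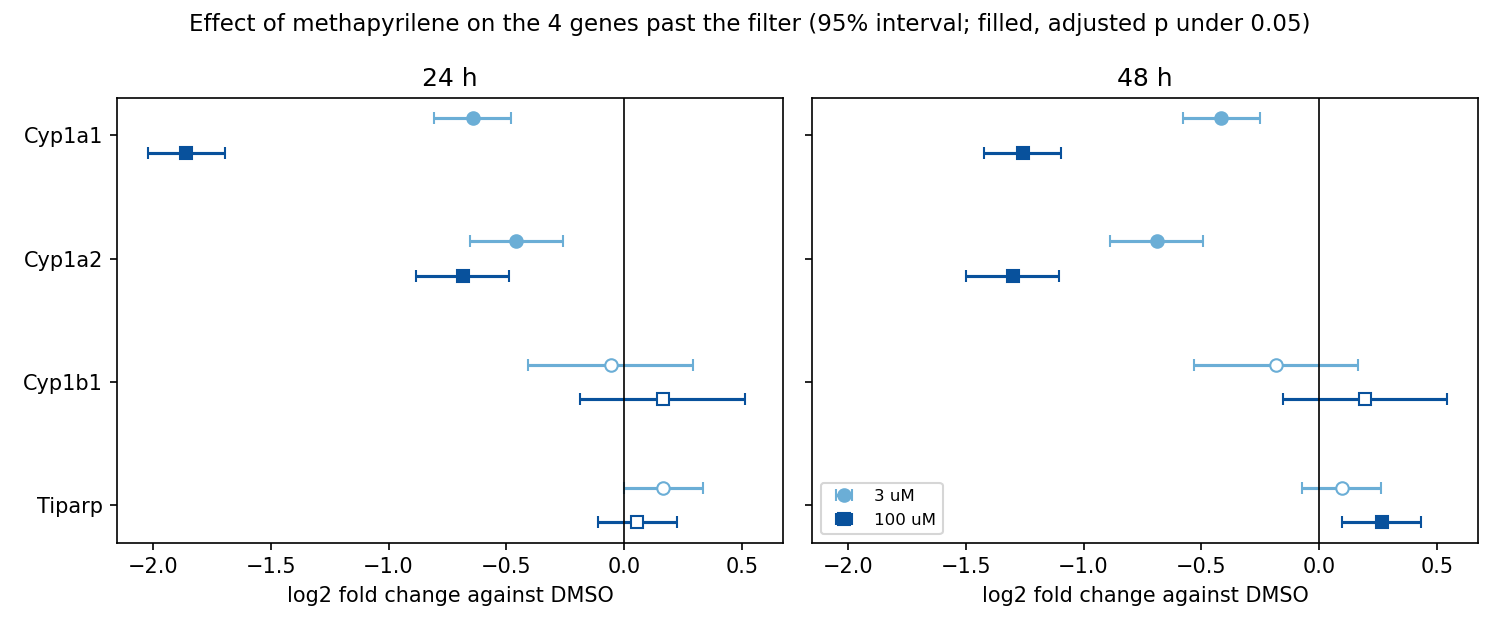
Log2 fold change against DMSO with its 95% interval for the 4 genes past the filter, 24 h left and 48 h right; circles are 3 uM and squares 100 uM, filled where the adjusted p is under 0.05. Cyp1a1 at 100 uM lies at -1.86 at 24 h and -1.26 at 48 h, Cyp1a2 at -0.69 and -1.30, while the Cyp1b1 intervals all include 0.

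**Figure D4:**
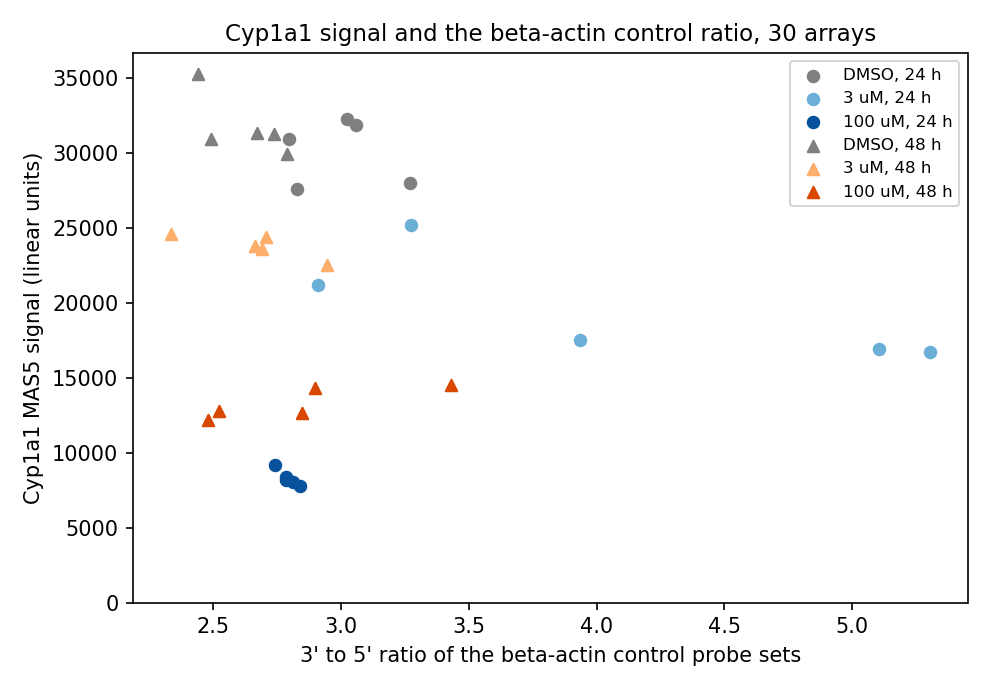
Cyp1a1 signal (linear units, axis from 0) against the 3′ to 5′ ratio of the beta-actin control probe sets, 1 point an array, circles for 24 h and triangles for 48 h. Replicates 1 to 3 of 3 uM at 24 h lie at ratios of 3.93 to 5.30 with Cyp1a1 signals of 16719 to 17498, and the arrays of 100 uM lie lower at ratios within the range of the other arrays.

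Cyp1b1 encodes a P450 of the same family that is prominent outside hepatocytes. It was called in 0 of 9 comparisons, with 1 of 9 at an unadjusted p under 0.05. That was 100 uM against 3 uM at 48 h (0.38, limma adjusted p = 0.100), which was called without replicate 5 of 3 uM (0.47, adjusted p = 0.0477). At 24 h the wells with 100 uM read 858, 641, 537, 881 and 834, against 727, 639, 457, 660 and 881 in the DMSO wells, with wide overlap. The log2 fold change of 100 uM was 0.16 (95% interval -0.19 to 0.51, limma adjusted p = 0.508) at 24 h and 0.19 (-0.15 to 0.54, adjusted p = 0.424) at 48 h. For 3 uM it was -0.06 (-0.41 to 0.29) at 24 h and -0.18 (-0.53 to 0.17) at 48 h, and with replicates 4 and 5 alone it was 0.00034 at 24 h. Each interval holds changes of either sign, and a halving lies outside all 4. Beside it, the summed signal of the 9 stellate cell and fibroblast markers was 3549 to 4317 with 100 uM at 24 h, against 3341 to 3842 with DMSO, and 3490 to 4693 with 100 uM at 48 h, against 3370 to 3856 with DMSO. Their part in the Cyp1b1 signal was not tested.

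Tiparp encodes a mono-ADP-ribosyltransferase (PARP7) that represses AhR. Its signal was higher at 100 uM and 48 h, with 3329, 3639, 3829, 3747 and 4243 in those wells, against 2788, 3027, 3291, 2942 and 3587 in the DMSO wells. The groups overlapped, since the lowest treated well lay under the highest DMSO well. The log2 fold change was 0.27 ± 0.082 (SE, n = 5 each, limma adjusted p = 0.0114). With arrays centred on the median it was 0.22 (adjusted p = 0.0650), and the call was lost. The second probe set of the gene read 990, 995, 972, 902 and 1042 with 100 uM, against 718, 633, 728, 633 and 629 with DMSO at 48 h. Those groups did not overlap, and its log2 fold change was 0.55 ± 0.12 (adjusted p = 0.00107 over all 20826 probe sets with 1 symbol). The share of probe sets that lie higher without overlap was not counted, and 18.9% of genes were called higher in this comparison. At 24 h the log2 fold change of 100 uM was 0.05 (95% interval -0.11 to 0.22) with the first probe set and 0.15 (-0.10 to 0.41) with the second, neither called. For 3 uM the first probe set gave 0.16 at 24 h (-0.00 to 0.33) and 0.10 at 48 h (-0.07 to 0.26), also not called. With replicates 4 and 5 alone it gave 0.11 at 24 h (limma adjusted p = 0.812). The second probe set gave -0.04 at 24 h (-0.29 to 0.21) and 0.10 at 48 h (-0.15 to 0.35), neither called. Between 100 uM and 3 uM at 48 h the first probe set differed by 0.17 (limma adjusted p = 0.128). That difference was called with the second probe set (0.46, adjusted p = 0.00483 over the probe sets past the filter) and with the mean of both (0.31, adjusted p = 0.00193).

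Ahr, the receptor itself, had a signal below the array median in nearly every well. At 48 h it read 399, 227, 555, 348 and 280 with 100 uM, against 199, 164, 317, 154 and 260 with DMSO, and the groups overlapped. The log2 difference was 0.71 (exact permutation test, p = 0.0476, two-sided, smallest possible p 0.00794), and 100 uM against 3 uM at 48 h gave 1.02 (exact permutation test, p = 0.0397). The second Ahr probe set did not show it: 71, 256, 314, 244 and 300 with 100 uM against 256, 222, 235, 253 and 237 with DMSO (log2 difference -0.19, exact permutation p = 0.976). These are 2 of 14 exact tests made on Ahr and Arnt, unadjusted. Arnt, the partner that AhR needs to bind DNA, read 30.4, 15.3, 256, 15.8 and 33.4 with 100 uM at 48 h, against 19.7, 15.4, 26.6, 49.1 and 34.7 with DMSO. Replicate 3 of 100 uM lay far above the rest, and no exact test of Arnt gave a p under 0.05. Its mean signal over the 30 arrays was 42.8, far below the array medians. A lack of difference in Arnt therefore cannot be read from this probe set.

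**Figure D5:**
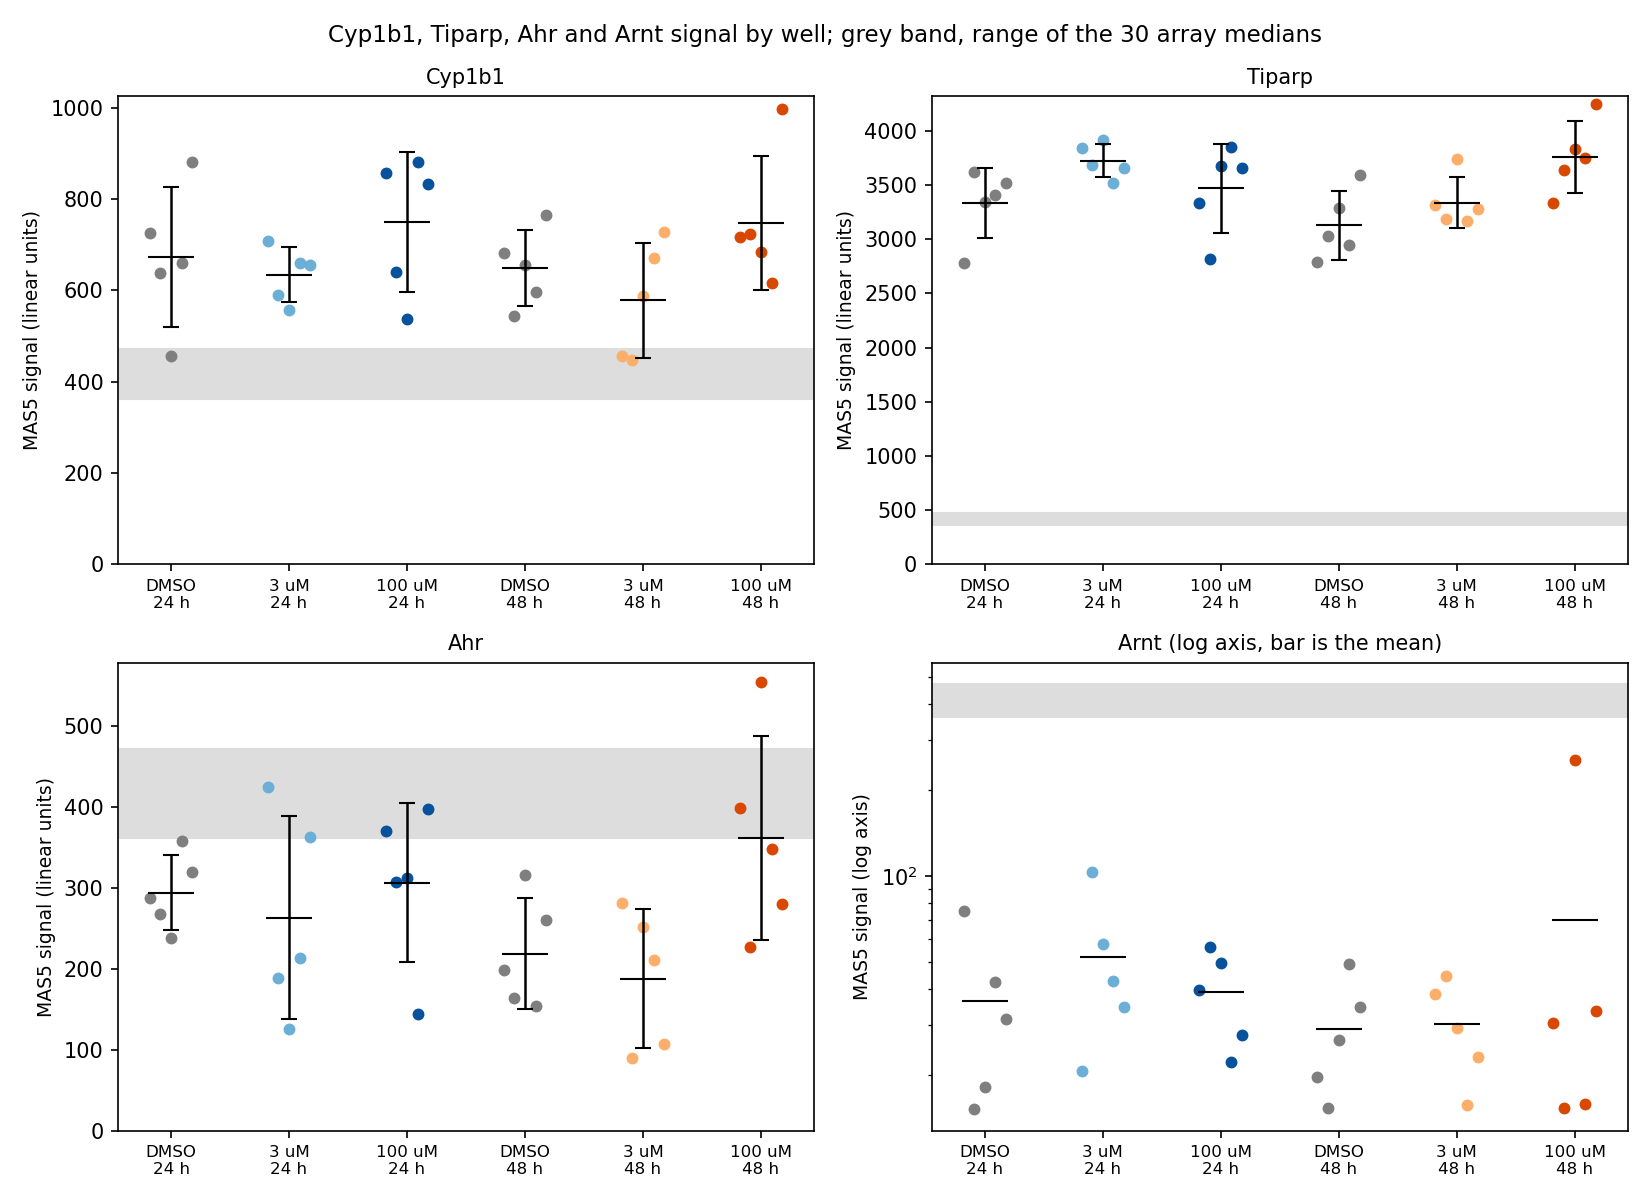
MAS5 signal of Cyp1b1, Tiparp, Ahr (linear axes from 0, mean and SD) and Arnt (log axis, mean) in each well by dose and time, with a grey band for the range of the 30 array medians, 362 to 471. Tiparp lies above the band in every well, Arnt below it in every well, and Ahr mostly below.

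The genes whose signals followed each P450 most closely were different ones. Over the 30 arrays, Plpp3 (Pearson r = 0.968), Tcim (0.952), Herpud1 (0.951), Asph (0.950) and Phyh (0.949) were most like Cyp1a1. Serpina4 (0.942), Serpina3m (0.938), Serpinc1 (0.934), Fetub (0.918) and C8g (0.911) were most like Cyp1a2, and these include genes for secreted plasma proteins such as antithrombin (Serpinc1). Ranked by Spearman correlation, 2 of the 5 for Cyp1a1 and 4 of the 5 for Cyp1a2 stayed among the closest. Cyp1a1 and Cyp1a2 correlated with each other at r = 0.294, which put Cyp1a2 at rank 2454 among the genes like Cyp1a1. Their deviations from the group means correlated at r = 0.711, and at 0.537 without the arrays of 3 uM at 24 h. All arrays share the 6 group means, so these values describe the design as much as the genes.

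Of the AhR complex and its partners, 13 of 19 listed genes were tested. At 100 uM 4 rose and 2 fell at 24 h, and 4 rose and 0 fell at 48 h, with a median log2 fold change of -0.04 at 24 h and 0.19 at 48 h, beside 0.04 and 0.05 over all genes. The 6 of 13 and 4 of 13 called stand near the 35.7% and 33.4% called over all genes. Of the listed HSP90 genes, Hsp90aa1 had no probe set of its own and was not tested. Hsp90ab1, an HSP90 of the complex that holds AhR in the cytosol, averaged 28916 ± 1144 with 100 uM at 24 h and 22302 ± 2270 with DMSO (SD, n = 5 each, log2 fold change 0.38, limma adjusted p = 7.74e-05). Ptges3, the p23 co-chaperone, rose by 0.25, Cdc37, a kinase co-chaperone of HSP90, by 0.20, and Hif1a, another partner of ARNT, by 0.46. At 48 h Hif1a (0.46), Epas1 (0.35), Hsp90ab1 (0.22) and Ptges3 (0.20) rose. The 2 that fell at 24 h were the coregulator Nrip1 (-0.38) and the coactivator Crebbp (-0.23), both named after their values were seen. With arrays centred on the median the calls of Cdc37 at 24 h (adjusted p = 0.0787) and of Hsp90ab1 (0.236) and Ptges3 (0.157) at 48 h were lost. At 3 uM 0 of 13 were called at either time (1 at 24 h with quantile scaling), with 1 of 13 at 24 h and 0 of 13 at 48 h at an unadjusted p under 0.05.

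Of other known AhR targets 11 of 17 were tested. At 100 uM 3 rose and 4 fell at 24 h, and 1 rose and 3 fell at 48 h, beside 35.7% and 33.4% of all genes called. The 4 of 11 called at 48 h stand near that background. Xdh, xanthine dehydrogenase, averaged 1053 ± 184 with 100 uM at 24 h and 3058 ± 483 with DMSO (SD, n = 5 each, log2 fold change -1.54, limma adjusted p = 2.67e-13), and -0.86 at 48 h (adjusted p = 1.05e-07). Gsta3, a glutathione transferase, fell by 0.44 at 24 h and by 0.61 at 48 h, and Cd36, a fatty acid receptor, by 0.86 and by 0.89. Nedd9 fell by 0.42 at 24 h. Nfe2l2, the regulator of antioxidant genes, rose by 0.26 at 24 h and by 0.29 at 48 h. The others that rose at 24 h were Slc7a5 (0.57), an amino acid transporter, and Ugdh (0.17), which makes UDP-glucuronate, and all 3 of that time are named after their values were seen. Median centring ended the 24 h calls of Nfe2l2 (adjusted p = 0.0563) and Ugdh (0.260). Nqo1, a quinone reductase, was not called at 100 uM (0.07 at 24 h and -0.13 at 48 h), and fell by 0.22 at 3 uM and 24 h (limma adjusted p = 0.0336). It was the single call of 11 there. The call was lost with replicates 4 and 5 alone (-0.19, adjusted p = 0.425), with the beta-actin covariate (adjusted p = 0.530) and with the 2 groups alone (0.246). Quantile (0.169) or median (0.293) scaling also ended it, and with quantile scaling 1 other gene of the list was called higher. At 48 h 0 of 11 were called at 3 uM, with 1 of 11 at an unadjusted p under 0.05.

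Of 13 genes that serve P450 enzymes with electrons or haem 12 were tested. At 100 uM 6 fell and 1 rose at 24 h, and 5 fell and 1 rose at 48 h, beside 15.8% lower and 19.9% higher at 24 h and 14.5% lower and 18.9% higher at 48 h over all genes. Their median log2 fold change was -0.24 at 24 h and -0.21 at 48 h, beside 0.04 and 0.05 over all genes, and the difference from other genes was not tested. Por, the reductase that passes electrons to all microsomal P450s, averaged 7308 ± 586 with 100 uM at 24 h and 10519 ± 1455 with DMSO (SD, n = 5 each, log2 fold change -0.52, limma adjusted p = 2.62e-06). Alas1, the first enzyme of haem synthesis, fell by 0.34 at 24 h and by 0.49 at 48 h, and Cpox, a later one, by 0.30 and by 0.27. Cyb5a, cytochrome b5, fell by 0.43 at 48 h. Hmox1, which breaks haem down, rose by 0.46 at 24 h and by 0.24 at 48 h, the later call being lost with median centring (adjusted p = 0.113). After 24 h of 3 uM Cyb5r3 rose by 0.31 (limma adjusted p = 0.0224) and Urod fell by 0.18 (adjusted p = 0.0448). With replicates 4 and 5 alone both calls were lost (Cyb5r3 0.16, adjusted p = 0.617, and Urod -0.05, adjusted p = 0.850), as they were with the beta-actin covariate (lowest adjusted p 0.798), the 2 groups alone (0.242 and 0.317) and median centring (0.0557 and 0.333). Quantile scaling called 1 gene of this list higher and 2 lower at 3 uM and 24 h. At 48 h 0 of 12 were called at 3 uM, with 2 of 12 at an unadjusted p under 0.05.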

How the data were processed

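The authors' deposited values are intensity: MAS5 probe set signals on a linear scale, per the submitters' processing notes. Its version, the genome build and detection calls are not given in the sources used here. Labelled RNA of 30 wells was hybridised to rat whole-genome arrays, so no depth applies and the number of arrays limits the precision. Probe sets took their gene from the platform annotation (20826 with 1 symbol, 436 with several), with symbols updated by gene identifier. Signals were log2 transformed without a pseudocount and fitted with limma 3.58.1 in R 4.3.3 (6 group means, 24 residual degrees of freedom, eBayes with a trend, two-sided, Benjamini-Hochberg over 10222 genes). Ahr and Arnt, which missed the filter, were compared by exact permutation over 252 splits. The genes, lists and naming rule (up to 4 called genes a list and comparison by adjusted p, or the 2 brightest) were chosen with earlier results of these data known. The pipeline was tested on simulated data. The closing section covers alternative scalings, filters, variance models, thresholds, sets of 6 consecutive array numbers and each array left out. Figures used matplotlib 3.10.9 in Python 3.11.15. Promoters came from RefSeq.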

Additional observations from a re-analysis of the deposited data

Results flagged for a closer look

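Single wells far from the other 4 of their group were sought in 36 groups of 5, where chance alone marks about 1 in 20. In DMSO wells at 48 h replicate 5 had the highest Cyp1a1 signal, 35300 against 29900 to 31300 in the others, and also the highest Cyp1a2 signal, 10500 against 8360 to 8970. At 100 uM and 48 h replicate 5 had a Cyp1b1 signal of 998 against 616 to 725, and replicate 3 an Arnt signal of 256 against 15.3 to 33.4. At 3 uM and 48 h replicate 3 had a Tiparp signal of 3740 against 3170 to 3320. The effect of 100 uM differed between 48 h and 24 h by a limma interaction test for Cyp1a1 (0.601 on the log2 scale, adjusted p = 0.00224) and for Cyp1a2 (-0.616, adjusted p = 0.0111).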

How the results depend on the processing

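Over 47 settings, and with the second Tiparp probe set, 1701 values of single genes were recomputed. Of these 1664 kept their side of the threshold, 24 lost and 13 gained a call. Reversals were counted only for values called in either run, and there were 0. Values not called in both runs could change sign and still counted as kept. Cyp1b1 at 3 uM and 24 h, for example, moved from -0.06 to 0.16 with the beta-actin covariate. Cyp1a1 and Cyp1a2 were called at 100 uM against DMSO at both times in every alternative run. At 100 uM and 48 h the count of 3 became 2 with median centring, at an adjusted p under 0.01 and at 1.5-fold. The call lost in each was that of Tiparp. At 3 uM and 24 h the count of 2 became 0 with the 2 groups alone or with replicates 4 and 5 alone, 1 at 1.5-fold or with the beta-actin covariate, and 1 to 2 with an array left out. At 3 uM and 48 h the count of 2 became 1 with median centring, without a trend, at an adjusted p under 0.01 and at 1.5-fold, and 1 to 2 with an array left out. For 100 uM against 3 uM at 24 h the count of 1 became 2 with median centring, replicates 4 and 5 alone, either control ratio as a covariate, and with runs of array numbers as a replicate block (Cyp1a2, adjusted p = 0.0330), and 1 to 2 with an array left out. The block changed no other count. These runs are sets of 6 consecutive array numbers in the titles, which no label calls a batch. Over all genes, deviations of arrays of the same set correlated at a mean r of 0.0045 (-0.11 to 0.17), and no label pairs the wells. Such a mean cannot show whether single genes share a set effect. At 100 uM and 24 h against DMSO, the block moved the standard error of Cyp1a1 from 0.080 to 0.072. That of Cyp1a2 moved from 0.096 to 0.085. The change of the 100 uM effect was called for 1 gene at an adjusted p under 0.01, and that of 3 uM for 1 with array weights (Cyp1a1, 0.36). Array weights called the 3 uM change for 1616 of all genes, against 0 as reported. With replicates 4 and 5 of 3 uM at 24 h alone it was -0.04 for Cyp1a1. Of 14 exact tests on Ahr and Arnt, 2 under 0.05 became 1 with quantile or median scaling, 0 with the other Ahr probe set and 0 to 3 with an array left out. By Spearman 2 of 5 genes like Cyp1a1 were shared. Over all genes the count at 3 uM and 24 h ran from 0 to 2891 (431 as reported), at 48 h from 2 to 5 (4), at 100 uM from 971 to 3957 (3648) and 857 to 4051 (3415), between the doses from 1005 to 4817 (3973) and 662 to 3469 (2945), over time in DMSO from 103 to 691 (458), and for the changes of effect from 58 to 266 (170) and 0 to 1616 (0). Replicates 4 and 5 alone and both covariates were chosen after seeing the data.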
